A study of Mus musculus with 13 samples.

Results

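The genes described here are 10 genes of mitochondrial fatty acid oxidation in the mouse pancreas, out of 23366 genes in the deposited expression table. They were listed by symbol, matched by Entrez number through the mm10 annotation, and all 10 were found. They are the carnitine transferases Cpt1a and Cpt2, the acyl-CoA dehydrogenases Acadvl, Acadl and Acadm, both subunits of the trifunctional protein (Hadha and Hadhb), the isomerase Ech1, the thiolase Acaa2 and the nuclear receptor Ppara.

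RNA of the whole pancreas was sequenced from 13 female mice, with 1 library per mouse. All of them belong to the reprogrammable i4F-B strain, which carries a ubiquitous cassette of Oct4, Sox2, Klf4 and Myc (OSKM), switched on by doxycycline and inserted in the Pparg gene. The 4 young mice were 13 weeks old and the 5 old mice 55 weeks old, and neither group received doxycycline. The 4 old-OSKM mice drank doxycycline in water with added sucrose for 7 days and then recovered for 2 weeks. The methods do not state that the untreated mice drank sucrose. Their labels give an age of 58 weeks, which counts treatment and recovery. No group received doxycycline without an inducible cassette, and no untreated group was kept to the same age. OSKM, the drug, the sucrose given with it and the added weeks therefore cannot be told apart. Values are log2 RPKM, reads per kilobase of transcript scaled to the mapped reads of the library, a scale per length on which levels of different genes can be compared. The files give no read depth for any mouse.

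Fatty acids enter the mitochondrion as acylcarnitines, which CPT1 makes on the outer membrane and CPT2 turns back into acyl-CoA inside. Each round of the oxidation spiral then takes an acyl-CoA dehydrogenase, a hydratase, a second dehydrogenase and a thiolase, and releases acetyl-CoA. PPARA is a receptor for fatty acids that is best known for switching on these genes in liver, heart and muscle. The exocrine pancreas consists mostly of acinar cells, which make digestive enzymes. Fatty acid oxidation is better known from the pancreatic islets, where it takes part in the control of insulin and glucagon release.

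The label of the tissue was checked against acinar markers fixed in a list. All 12 acinar markers had a mean log2 RPKM above 0 in each group, and Ctrb1, a chymotrypsinogen, was the most abundant. Cpa1, a carboxypeptidase of the same cells, lay between 10.12 and 10.38 in all 13 mice. Ctrb1 was at 11.11 in every mouse and the elastase Cela2a came next with an equal value in every mouse, since quantile normalization gives the genes at the top places the same values in each library. The levels and sums of the most abundant acinar genes can therefore show little of any difference between the groups.

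Several libraries stood apart in markers of other cells. Young mouse 3 held transcripts of hepatocytes: Alb, the gene of albumin, was at 5.36 there and between -1.19 and 1.24 in the other mice. The 7 hepatocyte markers summed to 70.2 RPKM in that mouse, to 8.30 in old mouse 4 and to at most 6.93 elsewhere. Old-OSKM mouse 1 and old-OSKM mouse 4 were highest in the 8 adipocyte markers, with sums of 15.1 and 15.4 RPKM, next to 10.3 in young mouse 4 and at most 6.74 in the other mice. Both also had the highest macrophage sums, 38.2 and 31.4 RPKM. Old-OSKM mouse 4 was in addition highest in islet, stromal, endothelial, duct and erythroid markers and lowest in the acinar sum. Old-OSKM mouse 1 was highest in T cell markers (5.15 RPKM) and in B and plasma cell markers (13.5 RPKM), next to at most 1.62 and 8.19 in the others. In the whole table, 1217 genes (5.21%) of old-OSKM mouse 1 and 1206 (5.16%) of old-OSKM mouse 4 lay more than 1 log2 unit from the median of the other mice, compared with 822 (3.52%) in young mouse 3 and at most 591 (2.53%) in the rest. The source of these transcripts was not tested, and the members' results and most results of other lists are given with and without them.

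All 10 members were expressed. Their mean log2 RPKM over the 13 mice was above 0, as it was for 36% of all genes, and 9 of them lay above at least 80.5% of the table. By mean level the order was Hadha (1.68), Cpt1a (1.63), Hadhb (1.63), Acaa2 (1.61), Ech1 (1.49), Acadvl (1.47), Acadm (1.46), Acadl (1.18), Cpt2 (1.07) and Ppara (0.43). Most neighbours in this order did not differ beyond their spread. The exceptions were the step from Acadm down to Acadl, a mean difference of 0.28 with an SD of 0.20 over the mice (Acadm higher in 12 of 13), and the step from Cpt2 down to Ppara, 0.64 with an SD of 0.21 (Cpt2 higher in 13 of 13). The enzymes thus fell into an upper set of 7 and a lower pair, Acadl and Cpt2, with the receptor below them.

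**Figure D1:**
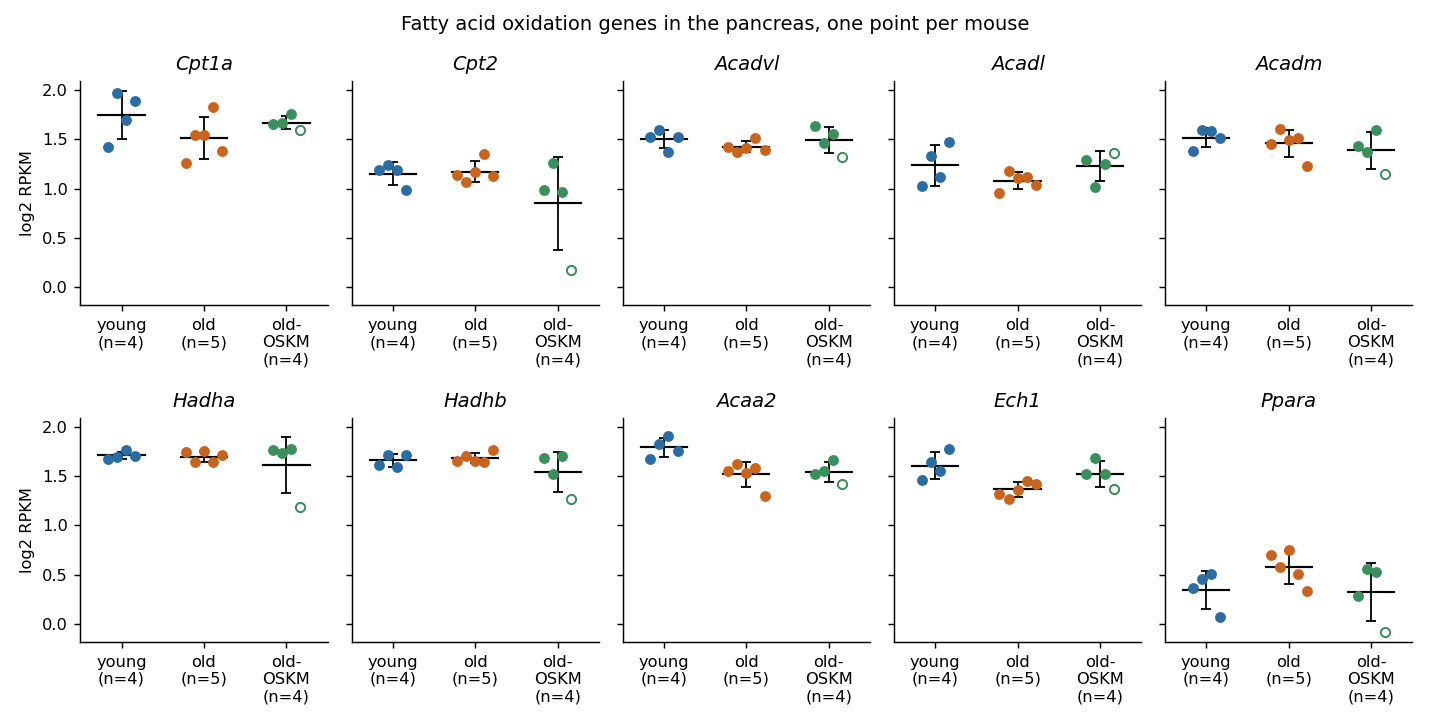
Log2 RPKM of the 10 genes, one panel per gene and one point per mouse, for young (n = 4), old (n = 5) and old-OSKM mice (n = 4); horizontal lines are means and bars SDs. The open point is old-OSKM mouse 4, which is the lowest mouse for Cpt2, Hadha, Hadhb, Acadm, Acadvl and Ppara, and the young points of Acaa2 lie above all old points.

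Between old and young mice, the clearest differences were lower values of Acaa2 and Ech1 in old mice, and both were small. Acaa2 differed by -0.28 on the log2 scale (-17.4%, standard error 0.08) and Ech1 by -0.24 (-15.4%, standard error 0.08). They are the 2 members with a raw p under 0.05 for lower values, a rule that 2.52% of all genes met, and 0 members met it for higher values, against 3.0% of all genes. Neither passed the study's call, a fold change over 1.5 with a raw p under 0.01, which 0.886% of all genes passed and 0 members. After adjustment over all genes 0 members were under 0.05 in limma, against 0.0813% of the table. The values of Acaa2 and Ech1 were also lower in every old mouse than in every young mouse, as for 1.22% of all genes, and 0 members lay wholly above, against 1.5%. With 10 members, shares under 1% come to less than 1 gene, so the counts of 0 do not set the members apart.

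The other 8 members had old minus young differences from -0.23 for Cpt1a to 0.22 for Ppara, and their groups overlapped. The median over the members was -0.07, compared with 0.00 over all genes, and 7 of the 10 differences were negative, next to 45.5% of all genes. Without young mouse 1, Cpt1a (-0.34) and Acadl (-0.23) also had a raw p under 0.05, and without old mouse 4 Cpt1a did (-0.31), while 4.9% and 5.51% of all genes had one in either direction in these fits. The differences of Cpt2 and Hadha were within 0.02 of 0 and had no stable sign. Cpt2 was at -0.03 without old mouse 4 and at -0.04 without young mouse 4, and Hadha turned above 0 without old mouse 2, old mouse 4 or young mouse 3, by at most 0.0061.

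Between old-OSKM and old mice, no member passed a test. The differences ran from -0.32 for Cpt2 to 0.16 for Ech1, 5 up and 5 down, with a median of -0.02 next to -0.04 over all genes. In this comparison 0 members had lower values at a raw p under 0.05 (4.08% of all genes in limma) and 0 had higher values (3.98%). The study's call was met by 0.753% of the table and 0 members, and an adjusted p under 0.05 by 0.00428% and 0 members. No member's groups were separate, which 0.706% of all genes were with all old-OSKM values below and 1.02% with all above. The old mice take part in this comparison and in the one with young mice, with opposite signs, so the values of a member in both are not independent.

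The old-OSKM averages lean on a single mouse. Old-OSKM mouse 4 had the lowest value of all 13 mice in 6 members, by far in Cpt2 (0.18), Hadha (1.18) and Hadhb (1.26), while its Acadl (1.37) was the second highest. Its mean z-score over all genes was also the lowest, at -0.57, followed by -0.35 in old-OSKM mouse 1. The low values are thus not particular to the members, and the share of all genes lowest in this mouse was not counted. Without old-OSKM mouse 4 the difference was -0.10 for Cpt2, 0.06 for Hadha, -0.05 for Hadhb, 0.01 for Acadm and -0.12 for Ppara, so that Hadha and Acadm turned positive. Acadvl (0.13) and Ech1 (0.21) then had a raw p under 0.05 for higher values, as 2.88% of all genes had in that fit, and 0 members had one for lower values (3.35%). Leaving out other mice also moved the count from 0. Without old-OSKM mouse 2 it was 3 (Cpt2 at -0.46, Ppara at -0.33 and Acadl at 0.22), without old-OSKM mouse 3 it was 1 (Hadhb at -0.19), and without young mouse 4, which enters only through the shared spread, it was 1 (Ech1). The shares of all genes with a raw p under 0.05 in either direction were 12.6%, 16.5% and 7.46% in these 3 fits, against 8.07% with all mice.

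**Figure D2:**
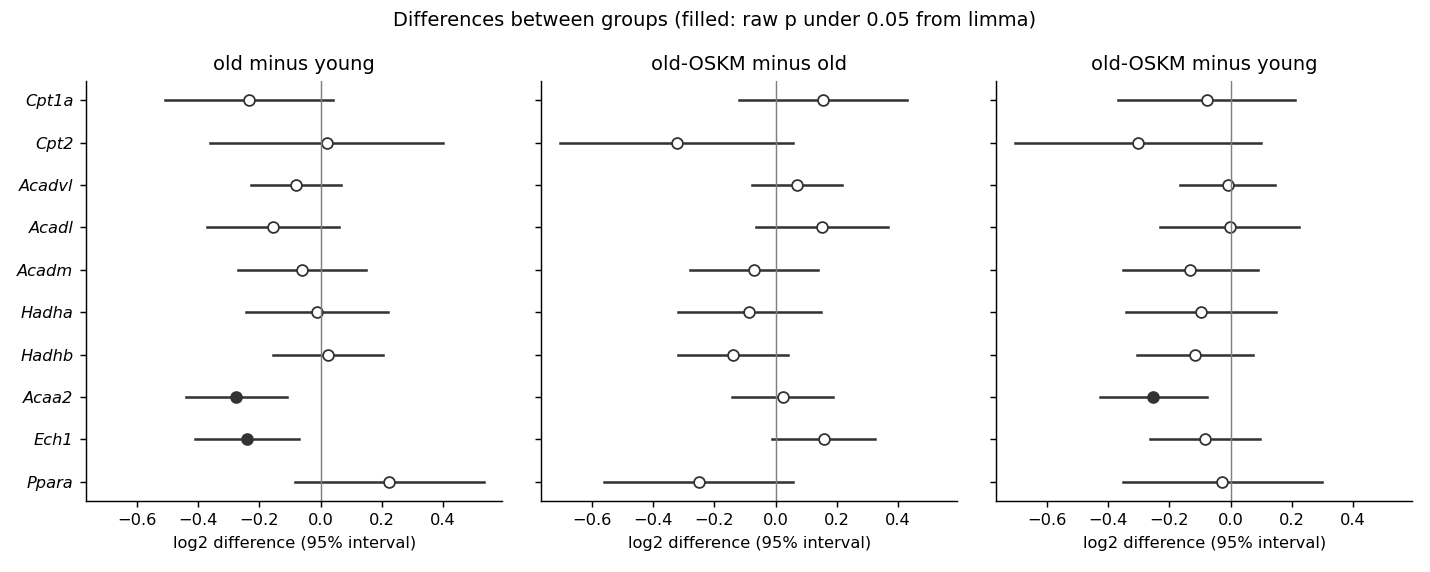
Log2 differences of the 10 genes between groups with 95% intervals from limma, 1 panel per comparison; filled points have a raw p under 0.05. Acaa2 is filled in old minus young and in old-OSKM minus young, Ech1 in old minus young, and no gene is filled in old-OSKM minus old.

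Between old-OSKM and young mice, Acaa2 was the member that stood out, at -0.25 (-16.0%, standard error 0.08). The young mice are the same as in old minus young, so its results in the comparisons with young mice are not independent. Acaa2 was the 1 member with lower values at a raw p under 0.05, against 2.16% of all genes, and 0 members had higher values (2.91%). No member passed the study's call (0.625% of all genes) or had an adjusted p under 0.05 in limma (0.0428%). Acaa2 was also the 1 member with every old-OSKM value below every young value, as in 0.813% of all genes, and 0 lay wholly above (1.09%). All 10 differences were negative, as were those of 61.3% of all genes, from -0.30 for Cpt2 to -0.0029 for Acadl, with a median of -0.09 next to -0.04 over all genes. Both shares depend on the mice, since without old-OSKM mice 1 and 4 the differences of 7 of 10 members and of 37.4% of all genes were negative. The sign did not hold for 4 members when single mice were left out. Without old-OSKM mouse 4, Acadvl (0.05), Hadha (0.05) and Ppara (0.11) were positive. Without young mouse 2, Acadvl and Acadl were at 0.02 and 0.03 and Ppara at 0.0082. Acadl was also positive without old-OSKM mouse 2 (0.07) or young mouse 4 (0.08), and Ppara without young mouse 3 (0.02). Cpt2 (-0.44) joined Acaa2 at a raw p under 0.05 without old-OSKM mouse 2.

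The carnitine shuttle is the entry step and its first enzyme is the main point of control in textbooks. Cpt1a (Entrez 12894, chr19:3322326-3385735 of mm10, plus strand) codes for the form of CPT1 best known from liver. Its log2 RPKM was 1.43, 1.98, 1.70 and 1.89 in the young mice, 1.26, 1.54, 1.55, 1.83 and 1.39 in the old mice, and 1.65, 1.67, 1.76 and 1.59 in the old-OSKM mice. Young and old values interleaved, with young mouse 1 among the old ones and old mouse 4 among the young ones, and the old-OSKM mice were the closest to each other. The means were 1.75 ± 0.24 (SD, n = 4), 1.51 ± 0.21 (SD, n = 5) and 1.67 ± 0.07 (SD, n = 4). The old minus young difference was -0.23 (standard error 0.13, adjusted p = 1 from limma) and the old-OSKM minus old difference 0.15 (standard error 0.13, adjusted p = 0.609 from limma). The intervals, from -0.51 to 0.04 and from -0.12 to 0.43, leave room for no difference and for a larger one. Cpt1b, the muscle form, was far lower, between -4.23 and -2.46 in the 13 mice.

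Promoter sequences are shown for Cpt1a, Acadm and Acadvl because they are the members with the letters AGGTCA, the core to which nuclear receptors such as PPARA bind, in the window around their start. They come from the RefSeq table of build GRCm38.p6, the assembly also called mm10, with 250 bases before and 50 after the start that the table gives. That start is the gene's own in 7 of the 9 members found, while in Cpt1a it lies 975 bases and in Ppara 866 bases inside the gene as the annotation places it. The table held 32851 promoters in all. AGGTCA was found on either strand in 3 of the 9, against 16.3% of all promoters. A direct repeat of AGGTCA with 1 base between, the classical arrangement for PPARA with its partner RXR, was in 0 of the 9 and in 0.0396% of all. For Cpt1a the match begins at position -94 from the start in the table, on the other strand, so it reads TGACCT in capitals. The window is chr19:3323051-3323350, plus strand. A match says only that these letters are there.
Cpt1a promoter: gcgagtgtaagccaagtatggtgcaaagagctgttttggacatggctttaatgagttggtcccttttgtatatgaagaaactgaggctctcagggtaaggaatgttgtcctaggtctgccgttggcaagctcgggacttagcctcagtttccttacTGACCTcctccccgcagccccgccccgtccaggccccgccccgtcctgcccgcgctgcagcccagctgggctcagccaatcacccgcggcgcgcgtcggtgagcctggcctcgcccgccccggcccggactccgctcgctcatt

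Cpt2 (Entrez 12896, chr4:107903982-107923589, minus strand) codes for the transferase of the inner membrane. It was at 1.19, 1.24, 1.19 and 0.98 in the young mice, at 1.14, 1.07, 1.17, 1.36 and 1.13 in the old mice, and at 0.98, 1.26, 0.97 and 0.18 in the old-OSKM mice. Old-OSKM mouse 4 was alone at the bottom, and the other old-OSKM mice lay within or just below the range of the young and old mice. The mean was 0.85 ± 0.47 (SD, n = 4) in old-OSKM mice, with the largest SD of any member in any group, and 1.17 ± 0.11 (SD, n = 5) in old mice. Old-OSKM minus old was -0.32 (interval from -0.70 to 0.06, adjusted p = 0.605 from limma), the largest size among the members in that comparison, and it was -0.10 without old-OSKM mouse 4 and -0.46 without old-OSKM mouse 2. Cpt1a did not share this dip, since its value in the same mouse was 1.59.

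The acyl-CoA dehydrogenases open each round of the spiral and divide the work by chain length, ACADVL for very long, ACADL for long and ACADM for medium chains. Acadvl (Entrez 11370, chr11:70010183-70015428, minus strand) was the steadiest member over all 13 mice, with values from 1.32 to 1.63 and an SD of 0.10. Without old-OSKM mouse 4, Hadha had the narrower span, from 1.64 to 1.77. The Acadvl gene shares 2119 bases with Dvl2 on the opposite strand, and the library kit is not stated to keep the strand. How many of the Acadvl reads belong to Dvl2 therefore cannot be told. Acadm (Entrez 11364, chr3:153922353-153944643, minus strand) lay between 1.15 in old-OSKM mouse 4 and 1.60 in old mouse 2. Acadl (Entrez 11363, chr1:66830839-66863309, minus strand) lay between 0.96 in old mouse 1 and 1.47 in young mouse 4.

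Acadl was at 0.96, 1.18, 1.11, 1.12 and 1.03 in the old mice, and 3 of the 4 old-OSKM mice (1.29, 1.26 and 1.37) were above all of them, with old-OSKM mouse 2 at 1.02 as the exception. The young mice were split, with 1.33 and 1.47 in young mice 2 and 4 and 1.02 and 1.12 in young mice 1 and 3. Its differences were -0.16 for old minus young (standard error 0.10, adjusted p = 1 from limma) and 0.15 for old-OSKM minus old (standard error 0.10, adjusted p = 0.608 from limma). For Acadm they were -0.06 and -0.07, and for Acadvl -0.08 and 0.07, with all intervals spanning 0. Without the 4 mice highest in hepatocyte or adipocyte markers Acadvl was at -0.15 and 0.11, both with a raw p under 0.05 (adjusted p = 0.242 and 0.984 from limma). The Acadm and Acadvl promoters both hold AGGTCA, in capitals below. In Acadm (chr3:153944594-153944893, minus strand) it starts at position -249, read from the other strand, and in Acadvl (chr11:70015379-70015678, minus strand) at -87. Acadvl also has AAGATGG, the core of the YY1 motif, at -102.
Acadm promoter: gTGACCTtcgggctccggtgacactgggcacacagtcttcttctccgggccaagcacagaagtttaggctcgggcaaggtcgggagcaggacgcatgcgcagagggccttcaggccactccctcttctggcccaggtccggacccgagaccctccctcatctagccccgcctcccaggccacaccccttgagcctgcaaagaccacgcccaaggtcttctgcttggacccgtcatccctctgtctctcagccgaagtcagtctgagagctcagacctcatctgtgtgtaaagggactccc
Acadvl promoter: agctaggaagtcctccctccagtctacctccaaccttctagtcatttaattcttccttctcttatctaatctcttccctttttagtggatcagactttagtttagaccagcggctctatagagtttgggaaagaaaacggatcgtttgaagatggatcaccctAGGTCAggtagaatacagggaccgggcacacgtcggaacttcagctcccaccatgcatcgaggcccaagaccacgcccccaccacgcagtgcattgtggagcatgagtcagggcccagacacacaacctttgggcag

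Hadha and Hadhb code for the alpha and beta subunits of the mitochondrial trifunctional protein, which holds the hydratase, the second dehydrogenase and the thiolase for long chains. Their genes stand head to head on chromosome 5, Hadha (Entrez 97212) at chr5:30119423-30154980 on the minus strand and Hadhb (Entrez 231086) at chr5:30155253-30184593 on the plus strand, with 272 bases between them. The starts face each other, and the RefSeq windows of the genes share 228 bases. The Hadhb window, chr5:30155003-30155302 on the plus strand, is shown because it covers this shared stretch, with the GC box GGGCGG in capitals on either strand. It has 4 GC boxes and 60.7% G and C, compared with a median of 52.7% over all promoters. Over the members, 7 of 9 promoters hold a GC box, against 35.7% of all, where the box of Hadha is also 1 of the 4 of Hadhb and so counts for both, 0 hold TATAAA, against 13.6%, and 1 (Cpt1a) holds CCAAT, against 37.4%.
Hadhb promoter: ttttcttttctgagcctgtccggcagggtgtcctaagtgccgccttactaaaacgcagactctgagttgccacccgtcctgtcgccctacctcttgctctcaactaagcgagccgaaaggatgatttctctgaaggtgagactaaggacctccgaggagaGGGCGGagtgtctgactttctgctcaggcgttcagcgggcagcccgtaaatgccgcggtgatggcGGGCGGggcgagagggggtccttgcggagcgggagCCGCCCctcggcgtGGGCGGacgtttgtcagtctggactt

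In the mice the paired genes had nearly equal levels. Hadha was at 1.68, 1.69, 1.76 and 1.71 in the young mice and at 1.75, 1.64, 1.75, 1.64 and 1.71 in the old mice. In the old-OSKM mice it was at 1.76, 1.74, 1.77 and 1.18. Apart from old-OSKM mouse 4, all values of Hadha lay between 1.64 and 1.77, and the groups overlapped. Hadhb was at 1.61, 1.72, 1.59 and 1.72 in the young, at 1.65, 1.70, 1.66, 1.64 and 1.76 in the old, and at 1.69, 1.52, 1.70 and 1.26 in the old-OSKM mice. It too was lowest in old-OSKM mouse 4, followed by old-OSKM mouse 2, where Hadha was not low. Old minus young was -0.01 for Hadha (interval from -0.24 to 0.22) and 0.02 for Hadhb (interval from -0.16 to 0.20). Old-OSKM minus old was -0.09 for Hadha (standard error 0.11, adjusted p = 0.702 from limma) and -0.14 for Hadhb (standard error 0.08, adjusted p = 0.608 from limma), and without old-OSKM mouse 4 these became 0.06 and -0.05.

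Ech1 (Entrez 51798, chr7:28825338-28832239, plus strand) codes for an isomerase that moves a double bond so that unsaturated fatty acids can enter the spiral. It was at 1.46, 1.64, 1.55 and 1.77 in the young mice, at 1.32, 1.27, 1.36, 1.46 and 1.42 in the old mice, and at 1.52, 1.69, 1.52 and 1.37 in the old-OSKM mice. All old mice were below all young mice, but by a gap of 0.0029 between old mouse 4 and young mouse 1, and the old-OSKM mice spread over both. The means were 1.61 ± 0.14 (SD, n = 4), 1.36 ± 0.08 (SD, n = 5) and 1.52 ± 0.13 (SD, n = 4). The old minus young difference of -0.24 (interval from -0.41 to -0.07, adjusted p = 0.61 from limma, 5 of 5 old mice below the young mean) ranked 357 by p among all genes. The sample numbers in the labels fall in runs from 609 to 621, which holds all old-OSKM mice, and from 641 to 643. In the first the difference was -0.20 and in the second, where a single old mouse stood against 2 young ones, -0.24.

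For old-OSKM minus old, Ech1 had the largest positive difference of the members, 0.16 (interval from -0.01 to 0.33, adjusted p = 0.558 from limma), and all 4 old-OSKM mice were above the old mean. That value depends on the mice and on how they are weighted. It was 0.21 without old-OSKM mouse 4, 0.24 without old-OSKM mice 1 and 4, 0.26 without these and the hepatocyte-marker mice, and 0.10 without old-OSKM mouse 2. With mice weighted by their spread it was 0.29, with an adjusted p of 0.0421, the lowest over all alternatives, which ranged up to 0.991. Those weights were 0.0896 for old-OSKM mouse 4, 0.267 for old-OSKM mouse 1 and 5.52 for old-OSKM mouse 2, the mouse with the highest Ech1 of its group. With the weights 16.1% of all genes had a raw p under 0.05, against 8.07% without them. The study's call was then met by 573 genes, against 176, so Ech1 was not singled out. The share of all genes with an adjusted p under 0.05 in that fit was not counted. The Ech1 promoter (chr7:28825088-28825387, plus strand) is shown as that of the member with the most changeable call. Capitals mark the GC box GGGCGG on either strand, first at position -86. It also has AAGATGG at -120, which is in 3 of the 9 member promoters (Hadha, Ech1 and Acadvl) and in 6.34% of all.
Ech1 promoter: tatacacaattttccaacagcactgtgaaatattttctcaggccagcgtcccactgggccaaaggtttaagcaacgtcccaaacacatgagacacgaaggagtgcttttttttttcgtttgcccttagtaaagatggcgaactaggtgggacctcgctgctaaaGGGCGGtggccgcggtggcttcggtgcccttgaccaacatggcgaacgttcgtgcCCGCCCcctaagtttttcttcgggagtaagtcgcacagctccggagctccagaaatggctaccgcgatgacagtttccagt

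The thiolase closes each round, and Acaa2 (Entrez 52538) codes for the mitochondrial enzyme of medium chains. The gene lies on chromosome 18 from 74779212 to 74806207, plus strand, and was the member missing from the promoter table. Its log2 RPKM was 1.68, 1.83, 1.91 and 1.75 in the young mice, 1.55, 1.62, 1.54, 1.58 and 1.30 in the old mice, and 1.53, 1.55, 1.66 and 1.42 in the old-OSKM mice. The young mice were on top, every old mouse and every old-OSKM mouse was below the lowest of them, and the old and old-OSKM mice overlapped. In RPKM the geometric means were 3.46 in young, 2.86 in old and 2.91 in old-OSKM mice.

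The old minus young difference of Acaa2 was -0.28 (interval from -0.44 to -0.11, adjusted p = 0.457 from limma, 5 of 5 old mice below the young mean), and it ranked 190 by p in the table. The mouse with the highest Acaa2, young mouse 3, is the one rich in hepatocyte transcripts, and the part of those transcripts in its value was not tested. Without that mouse the difference was -0.24, and without it and old mouse 4 it was -0.25 (adjusted p = 0.628 from limma). Within the sample numbers 609 to 621 it was -0.18 and within 641 to 643 it was -0.53, where the lone old mouse was the lowest of all, old mouse 5. Without old mouse 5 the difference was -0.22. Over the alternatives with all or most mice the adjusted p ranged from 0.183 to 0.628, and with single mice left out from 0.3 to 0.764.

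Between old-OSKM and old mice, Acaa2 differed by 0.02 (interval from -0.14 to 0.19, adjusted p = 0.89 from limma), and it turned negative without old-OSKM mouse 3 (-0.02) or old mouse 5 (-0.03). Old-OSKM minus young was -0.25 (interval from -0.43 to -0.08, adjusted p = 0.706 from limma, 4 of 4 old-OSKM mice below the young mean). It was -0.19 without old-OSKM mice 1 and 4 and -0.15 without these and the hepatocyte-marker mice, and in both cases the raw p was no longer under 0.05 (adjusted p = 0.975 and 1 from limma, in a range from 0.281 to 1 over the alternatives).

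Ppara (Entrez 19013, chr15:85734910-85806851, plus strand) was the weakest member and among the most variable. It was at 0.37, 0.45, 0.50 and 0.07 in the young mice, at 0.70, 0.58, 0.74, 0.51 and 0.33 in the old mice, and at 0.28, 0.55, 0.53 and -0.08 in the old-OSKM mice. The 3 highest values were all from old mice, and young mouse 4 and old-OSKM mouse 4 were lowest. Its differences had signs opposite to those of Cpt1a and Ech1, with 0.22 for old minus young (interval from -0.08 to 0.53, adjusted p = 1 from limma) and -0.25 for old-OSKM minus old (interval from -0.56 to 0.06, adjusted p = 0.608 from limma). The latter was -0.12 without old-OSKM mouse 4 and -0.33 without old-OSKM mouse 2. The 15 listed target genes of PPARA outside the members had a median that was close to 0 with all mice but depended on which mice were in. It was -0.03 for old minus young, -0.01 for old-OSKM minus old and 0.04 for old-OSKM minus young, and 0 of 15 had a raw p under 0.05 in limma in any of the 3. Without young mouse 3 and old mouse 4 the first was 0.16, with 1 gene higher at a raw p under 0.05, and without old-OSKM mice 1 and 4 the others were -0.12 and -0.27.

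Among themselves the members followed each other only loosely. Over the 13 mice, 39 of the 45 pairs had a positive Pearson r and the median r was 0.37, but it was 0.05 without old-OSKM mouse 4. No pair had an adjusted p under 0.05 in permutation tests over all 45 pairs. Hadha and Hadhb, whose starts face each other, had r = 0.81 (permutation p = 0.0523, adjusted p = 0.194) and Spearman's rho = 0.10 (permutation p = 0.738, adjusted p = 0.89). Their r was -0.25 without the 2 mice farthest from the median of Hadha and -0.15 without old-OSKM mouse 4, so the relation rests on that mouse. In the 10 mice with sample numbers up to 621, which include it, r was 0.87.

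The pair of smallest p was Acadm and Acaa2, the dehydrogenase and the thiolase of medium chains, with r = 0.76 (permutation p = 0.00235, adjusted p = 0.104) and rho = 0.70 (permutation p = 0.0092, adjusted p = 0.207). This one did not rest on old-OSKM mouse 4, since r was 0.75 without it, and it was 0.55 without the 2 mice farthest from the median of Acadm. It was 0.70 in the mice with sample numbers up to 621. With the mean of each group subtracted r was 0.92, a value given without a test for a pair picked by its p. Cpt1a and Ech1 followed with r = 0.70 (permutation p = 0.00729, adjusted p = 0.104), rho = 0.73 (permutation p = 0.00569, adjusted p = 0.207), r = 0.61 without the 2 mice farthest from the median of Cpt1a and 0.65 within the first run of sample numbers. Next were Cpt2 and Ppara, with r = 0.71 (permutation p = 0.00829, adjusted p = 0.104), rho = 0.40 (permutation p = 0.182, adjusted p = 0.631) and r = 0.39 without old-OSKM mouse 4. Cpt1a and Acadl had r = 0.68 (permutation p = 0.0102, adjusted p = 0.104) and rho = 0.64 (permutation p = 0.0228, adjusted p = 0.341). Their r was 0.76 without old-OSKM mouse 4 and 0.56 without the 2 mice farthest from the median of Cpt1a. Acadl and Ppara had the largest negative value, r = -0.67 (permutation p = 0.0116, adjusted p = 0.104), with rho = -0.59 (permutation p = 0.0348, adjusted p = 0.379). Their r was -0.30 without the 2 mice farthest from the median of Acadl and -0.61 without old-OSKM mouse 4. With the mean of each group subtracted, r was 0.57 for Cpt1a and Ech1 and 0.74 for Cpt2 and Ppara. It was 0.59 for Cpt1a and Acadl and -0.56 for Acadl and Ppara, all without a test. The permutations moved mice across the groups, so differences between groups enter the permutation p-values.

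The genes most like the members were sought among 8397 other genes with a mean log2 RPKM above 0, by Pearson's r with the mean z-score of the members over the 13 mice. That mean was lowest in old-OSKM mouse 4 (-1.60) and highest in young mouse 2 (0.88). The 5 closest were Mzt2 (r = 0.90), Vamp3 (0.89), Lcmt1 (0.88), Fam189a2 (0.88) and Chp1 (0.88). Vamp3, a SNARE protein of vesicle fusion, was the one whose likeness did not lean on the lowest mouse, with rho = 0.90 and r = 0.87 without old-OSKM mouse 4. The r of the other 4 without that mouse lay between 0.73 for Mzt2 and 0.78 for Lcmt1 and Chp1. These are descriptions with no test.

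Of 24 other mitochondrial genes of fatty acid and related oxidation, such as Acads, Hadh and Etfa, 0 had a raw p under 0.05 in limma in any comparison, and their medians were 0.02 for old minus young, -0.10 for old-OSKM minus old and -0.08 for old-OSKM minus young. At the shares of all genes given above, a list of this size would hold 1 or 2 such genes, so counts of 0 do not set it apart. Without old-OSKM mice 1 and 4 the median was 0.06 for old-OSKM minus old and 0.07 for old-OSKM minus young, where 4 genes were then higher at a raw p under 0.05, as also without old-OSKM mouse 4 alone (median 0.03). Of 14 genes of fatty acid uptake, activation and carnitine handling, 0 did so between old and young mice or between old-OSKM and young mice (medians 0.03 and 0.07). Between old-OSKM and old mice 2 were higher and 1 lower (median 0.03). They were the fatty acid carrier Cd36 at 0.64 (standard error 0.28), Cpt1c at 0.58 (standard error 0.23) and the carnitine acetyltransferase Crat at -0.31 (standard error 0.12), each with an adjusted p of 0.547 from limma. Cd36 was highest in old-OSKM mouse 4 (2.46) and old-OSKM mouse 1 (2.27), the mice highest in adipocyte and macrophage markers, and its difference was 0.12 without these mice. The part of those cells in it was not tested. Without these mice Cpt1c was at 0.56 and Crat at -0.13, and 0 of the 14 genes had a raw p under 0.05.

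Ketone body metabolism uses the acetyl-CoA that the spiral makes. In its list of 5 genes, 1 stood out, Bdh2, a cytosolic dehydrogenase, while the median of the list was 0.03 for old minus young, -0.08 for old-OSKM minus old and -0.02 for old-OSKM minus young. Bdh2 was at -0.18, -0.94, -0.64 and -1.92 in the young mice, at 1.28, 1.61, 1.71, 0.85 and 1.44 in the old mice, and at 1.13, 0.88, 1.30 and -0.30 in the old-OSKM mice. Even the lowest old mouse was above the highest young one, and 3 of the 4 old-OSKM mice lay with the old ones. The log2 difference was 2.3 for old minus young (standard error 0.38, a fold of 4.92, adjusted p = 0.0675 from limma), 1.67 for old-OSKM minus young (standard error 0.40, adjusted p = 0.558 from limma) and -0.63 for old-OSKM minus old (standard error 0.38, adjusted p = 0.608 from limma), which was -0.28 without old-OSKM mouse 4. The adjusted p for old minus young was 0.0271 without old-OSKM mouse 4, 0.131 without young mouse 3 and old mouse 4, and 0.0502 without old-OSKM mice 1 and 4 (all from limma). It passed the study's call in both comparisons with young mice. Without old-OSKM mouse 4, 2 of the 5 genes were higher in old-OSKM than in young mice at a raw p under 0.05. The count was also 2 without old-OSKM mice 1 and 4.

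Peroxisomes have an oxidation spiral of their own for very long and branched chains. Of 14 peroxisomal genes, 3 had lower values in old than in young mice at a raw p under 0.05 and 0 higher, with a median of -0.08. They were the thiolases Acaa1b, at -0.36 (standard error 0.11, adjusted p = 0.59 from limma), and Acaa1a, at -0.25 (standard error 0.08, adjusted p = 0.631 from limma), and the transporter Abcd2, at -0.58 (standard error 0.22, adjusted p = 0.727 from limma). Acaa1b was at 0.15, 0.36, 0.28 and 0.18 in the young mice, and all old values (-0.17, -0.02, -0.26, 0.07 and -0.22) and old-OSKM values (-0.02, 0.01, -0.07 and -0.53) were below them. In Acaa1a only old mouse 2 (1.73) lay among the young values, which began at 1.66. For old-OSKM minus old 1 gene was higher, Abcd2 at 0.72 (standard error 0.22, adjusted p = 0.547 from limma), which passed the study's call and was highest in old-OSKM mouse 1 (-1.17), and the median was -0.02. Abcd2 was at 0.47 without old-OSKM mice 1 and 4, with a raw p no longer under 0.05, while 2 other genes of the list were higher with one and the median was 0.09. It kept one without old-OSKM mouse 4 (0.74, with 3 genes of the list higher and 1 lower), without young mouse 3 and old mouse 4 (0.85) and without all 4 of these mice (0.59). For old-OSKM minus young 2 were lower, Acaa1b at -0.39 and the carnitine transferase Crot at -0.20 (standard error 0.09). Both had an adjusted p of 0.706 from limma, and the median of the list was -0.10 (12 of 14 negative). This median turned to 0.04 without old-OSKM mouse 4 (6 of 14 negative) and was -0.01 without old-OSKM mice 1 and 4 (7 of 14 negative). Crot was at -0.14 without old-OSKM mouse 4 and at -0.10 without old-OSKM mice 1 and 4, no longer with a raw p under 0.05, while Acaa1b was at -0.27 in both cases and kept one.

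Among 17 regulators, 3 were higher and 1 lower in old than in young mice at a raw p under 0.05 (median 0.08). The higher ones were the deacetylase Sirt1 (0.32, standard error 0.12, adjusted p = 0.708 from limma), the kinase subunit Prkaa2 of AMPK (0.23, standard error 0.09, adjusted p = 0.735 from limma) and the corepressor Nrip1 (0.18, standard error 0.06, adjusted p = 0.692 from limma). All old values of Nrip1 (1.03 to 1.24) and of Sirt1 (0.82 to 1.02) were above all young values (0.79 to 1.00 and 0.26 to 0.73). The lower one was Rxrg at -0.66 (standard error 0.21, adjusted p = 0.6 from limma), with 4 of 5 old values between -3.44 and -3.39, nearly equal low values that may measure no expression. For old-OSKM minus young it was at -0.69 (standard error 0.22, adjusted p = 0.706), with 3 of 4 old-OSKM values at -3.38 or lower. Prkaa2 (-0.20, standard error 0.09) and the coactivator Ppargc1a (-0.34, standard error 0.15) were the 2 regulators lower in old-OSKM than in old mice, both with an adjusted p of 0.547 from limma, and the median was -0.12. They were at -0.07 and -0.32 without old-OSKM mice 1 and 4, neither with a raw p under 0.05, and at -0.13 and -0.42 without old-OSKM mouse 4, where Ppargc1a had one. For old-OSKM minus young Rxrg was the 1 regulator with a raw p under 0.05, the median was 0.02, and Rxrg passed the study's call there and in old minus young. Its old-OSKM minus young value was -0.43 without old-OSKM mice 1 and 4, no longer with a raw p under 0.05, while Nrip1 (0.20) then had one. Pparg, the gene that houses the cassette, differed by 0.16 for old minus young and by -0.23 for old-OSKM minus old (standard error 0.17 each, adjusted p = 1 and 0.608 from limma).

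The steps downstream and the opposite pathway give a frame for the members. Of the 18 genes of the tricarboxylic acid cycle 0 had a raw p under 0.05 in limma in any comparison, with medians of -0.01 for old minus young, -0.07 for old-OSKM minus old and -0.06 for old-OSKM minus young. Of 36 nuclear genes of complex I 0 did so between old and young mice (median -0.01). Between old-OSKM and old mice 2 were lower, Ndufa6 at -0.16 (standard error 0.06) and Ndufs7 at -0.20 (standard error 0.09), with a median of -0.09 and 31 of 36 negative, where 63.1% of all genes were negative. This direction rests on old-OSKM mouse 4, since without it the median was 0.01 and 12 of 36 were negative, next to 62.8% of all genes, with 2 genes higher and 1 lower at a raw p under 0.05. Without old-OSKM mice 1 and 4 the median was 0.04, with 3 genes higher and 0 lower, and 40.8% of all genes were negative. Ndufs7 was at -0.10 without old-OSKM mouse 4, and without old-OSKM mice 1 and 4 it was at -0.03 and Ndufa6 at -0.08, neither with a raw p under 0.05. The medians of the tricarboxylic acid cycle were 0.07 and 0.06 for old-OSKM minus old and minus young without the same 2 mice. Between old-OSKM and young mice 2 complex I genes were lower, Ndufa6 at -0.17 and Ndufb7 at -0.15 (both standard errors 0.06), with a median of -0.11, which was 0.02 without old-OSKM mouse 4. Without old-OSKM mice 1 and 4 these genes were at -0.09 and -0.12, and neither had a raw p under 0.05. With all mice the adjusted p-values of these genes were 0.547 for old-OSKM minus old and 0.706 for old-OSKM minus young from limma. In fatty acid synthesis 0 of 12 genes had a raw p under 0.05 in any comparison, with medians of -0.03, 0.01 and 0.02 in the same order. Without young mouse 3 and old mouse 4 the first of these was 0.14, with 2 genes higher at a raw p under 0.05. In that fit 2 genes were lower for old-OSKM minus old. Without old-OSKM mouse 4 the median for old-OSKM minus old was 0.10, also with 2 genes lower at a raw p under 0.05. Without old-OSKM mice 1 and 4 the medians for old-OSKM minus old and minus young were -0.05 and -0.07. No test compared these lists with the members.

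The pancreas samples are bulk tissue, so fewer cells of a type and less RNA per cell cannot be told apart, and markers of other cells differed between the groups. For old minus young, the 6 markers of B and plasma cells had a median of 1.05 (6 of 6 higher, 2 with a raw p under 0.05), the 5 T cell markers found had 0.57 (5 of 5 higher, 0), the 7 fibroblast and stellate markers -0.32 (7 of 7 lower, 3 with a raw p under 0.05), and the 7 hepatocyte markers -0.78 (6 of 7 lower, 0), with young mouse 3 far above all other mice. The adipocyte markers had -0.33 (8 of 8 lower, 0) and the islet markers 0.27 (6 of 10 higher, 0). Without young mouse 3 and old mouse 4 the hepatocyte median was -0.01. For old-OSKM minus old, the 8 adipocyte markers had a median of 1.23 (8 of 8 higher, 4 with a raw p under 0.05), the 6 macrophage markers 0.76 (6 of 6 higher, 5), the fibroblast and stellate markers 0.59 (6 of 7 higher, 3), the B and plasma cell markers 0.59 (6 of 6 higher, 0), the T cell markers 0.62 (5 of 5 higher, 0) and the 10 islet markers -0.51 (10 of 10 lower, 1). Without old-OSKM mice 1 and 4 these medians were 0.08 for adipocyte, 0.25 for macrophage, 0.14 for fibroblast and stellate, -0.04 for B and plasma cell, -0.07 for T cell and -0.81 for islet markers, so all but the last rest mostly on those 2 mice. Without old-OSKM mouse 4 alone the islet median was -1.01, with 6 of 10 genes lower at a raw p under 0.05, against 2 of 10 without both mice. The hepatocyte markers had a median of -0.49 for old-OSKM minus old (6 of 7 lower, 0 with a raw p under 0.05). Without young mouse 3 and old mouse 4 it was -0.07, with 1 gene higher and 2 lower at a raw p under 0.05. For old-OSKM minus young, B and plasma cell markers had a median of 1.78 (4 higher at a raw p under 0.05), T cell markers 1.26 (3), adipocyte markers 0.89 (1), macrophage markers 0.71 (1), islet markers -0.31 (0), fibroblast and stellate markers -0.02 (0) and hepatocyte markers -1.03 (0). Without old-OSKM mice 1 and 4 these were 1.24 for B and plasma cell, 0.46 for T cell, -0.20 for adipocyte, 0.13 for macrophage, -0.52 for islet (-0.79 without old-OSKM mouse 4 alone, with 3 of 10 lower at a raw p under 0.05) and -0.27 for fibroblast and stellate markers. Without young mouse 3 and old mouse 4 the hepatocyte median was 0.19, with 2 genes higher at a raw p under 0.05. The part of these cells in the members' values was not tested.

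By mouse, the adipocyte markers summed to 4.48, 5.33, 6.71 and 10.3 RPKM in the young mice, to 4.50, 6.74, 3.93, 5.64 and 4.19 in the old mice, and to 15.1, 4.75, 4.69 and 15.4 in the old-OSKM mice. Fabp4, which macrophages and endothelium also make, was the most abundant, with 59.4% of the sum in old-OSKM mice, and the more defining Adipoq was at 1.12 in old-OSKM mouse 1, -0.49 in old-OSKM mouse 4 and at most -1.31 elsewhere. The macrophage sums were 13.3, 11.4, 12.7 and 19.9 in the young, 12.9, 12.3, 9.06, 15.7 and 11.9 in the old, and 38.2, 13.8, 14.9 and 31.4 in the old-OSKM mice, with Lyz2 the most abundant. The islet sums were 167, 154, 317 and 211 in the young, 174, 206, 395, 208 and 290 in the old, and 80.9, 166, 118 and 509 in the old-OSKM mice, with Ins2 the most abundant. Old-OSKM mouse 4, the lowest in 6 members, was thus the highest of all mice in islet and adipocyte sums, and the part of these cells in its values was not tested.

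The hepatocyte sums were 4.25, 3.26, 70.2 and 4.61 in the young, 4.67, 5.88, 6.93, 8.30 and 4.76 in the old, and 5.03, 4.31, 4.16 and 6.38 in the old-OSKM mice, with Alb the most abundant in young mouse 3. Markers of other tissues rich in fatty acid oxidation were low. Ucp1, the defining gene of brown fat, stayed between -3.74 and -3.53, and Ckm, of striated muscle, between -2.62 and -1.24. The 6 brown adipocyte markers had medians of -0.09 for old minus young, -0.04 for old-OSKM minus old and -0.16 for old-OSKM minus young, with Ppargc1a, lower in old-OSKM than in old mice, as the 1 gene with a raw p under 0.05. The 6 muscle markers had medians of -0.01, -0.08 and -0.11 in the same order, with 1 higher and 1 lower for old-OSKM minus old and 1 higher for old-OSKM minus young. The lists of 12 acinar, 7 duct, 6 endothelial and 5 erythroid markers had medians of -0.02, -0.07, -0.26 and -0.28 for old minus young, -0.00432, -0.01, 0.30 and 0.07 for old-OSKM minus old, and -0.01, -0.08, 0.09 and -0.17 for old-OSKM minus young. The endothelial medians of the last 2 comparisons were 0.02 and -0.18 without old-OSKM mice 1 and 4, and the erythroid ones -0.40 and -0.66, with 2 and 3 of 5 erythroid genes lower at a raw p under 0.05. With all mice these lists had, at a raw p under 0.05, 1 acinar gene higher and 1 lower in both comparisons with young mice and 1 endothelial gene lower in old than in young mice.

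**Figure D3:**
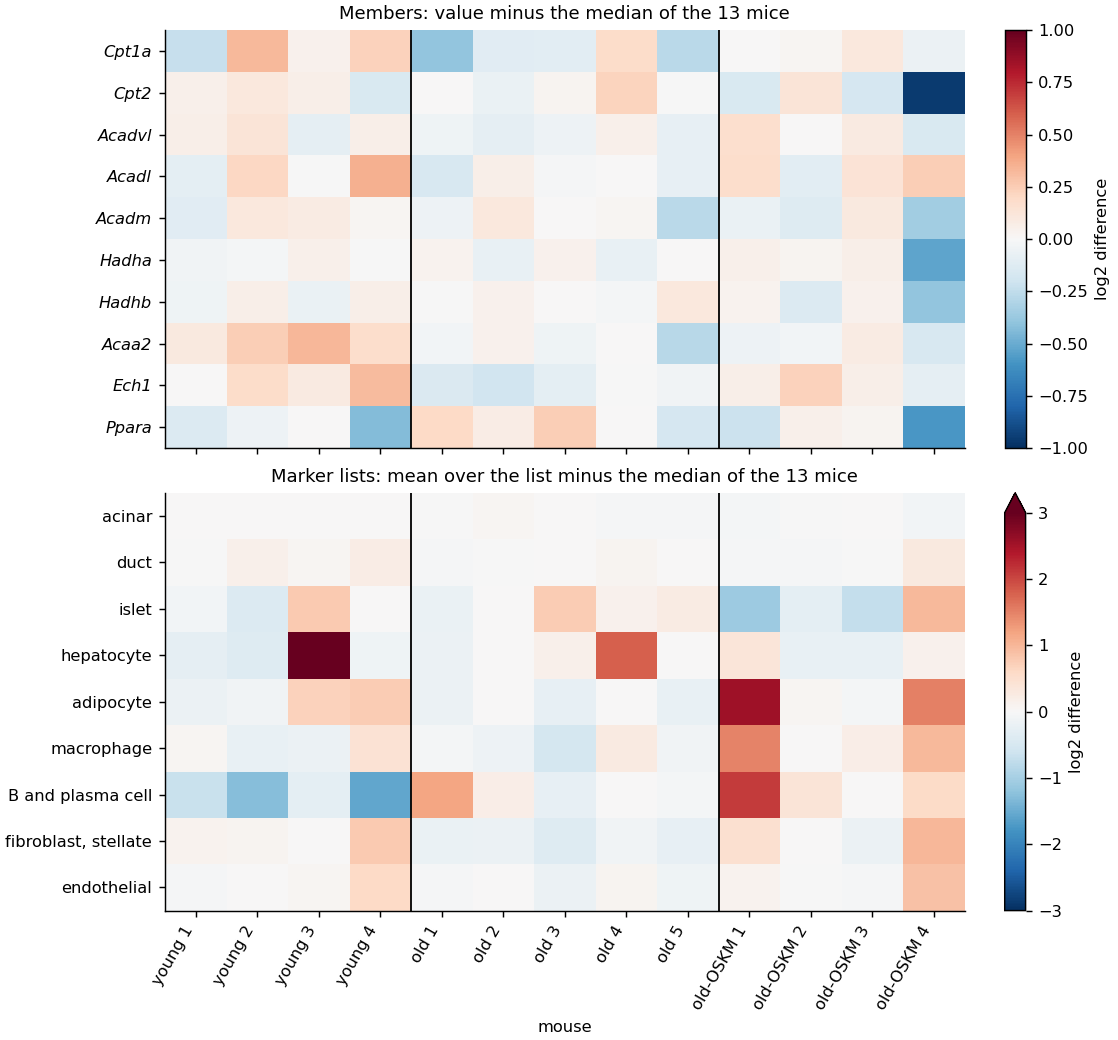
Heat maps of the 10 genes (top, value minus the median of the 13 mice, log2) and of 9 marker lists (bottom, mean over the list minus the median of the 13 mice, log2) in each mouse, on separate colour scales; the hepatocyte list of young mouse 3 lies beyond the end of the scale. Old-OSKM mouse 4 is low in Cpt2, Hadha, Hadhb and Ppara and high in islet, adipocyte and stromal lists, and the Acaa2 values of all young mice are above the median.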

How the data were processed

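The authors deposited log2 RPKM, 1 value per Entrez gene and mouse, made from paired-end reads of rRNA-depleted pancreas RNA aligned with STAR 2.3.0e to mm10. They dropped reads that map to 5 or more locations, estimated isoforms with Casper, summed these per gene and quantile normalized. The correction by total reads that the methods name is not visible in the values. The methods state a general number of reads for all samples, but no count is given for any mouse, so the depth of each mouse and the counting error are unknown. All values were used as they are, with no filter and no pseudocount.

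The 3 groups were fitted together across all 23366 genes with limma 3.58.1 in R 4.3.3, with two-sided contrasts and Benjamini-Hochberg adjustment over all genes. Contrasts share groups. No paired analysis was possible because the labels give no pairs of mice. Intervals are 95% intervals from the same fit. Named genes are all members, up to 8 genes of the other pathway lists with the smallest raw p under 0.05 per contrast, and the 5 genes most like the members. Cpt1b, Pparg and the single cell markers are outside that rule and were named after their values were seen. The members and lists were chosen with earlier results of these data known. The T cell list lacks Trac, which is not in the table. Correlations were tested with 100000 permutations of the mice.

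Alternatives were centring each mouse on its median, quantile normalizing once more, a filter on a mean log2 RPKM above 0, pseudocounts of 1 and 0.1, array weights, an eBayes step with both trend and robust set, fits of only the compared groups, the run of sample numbers or the global signature (the mean z-score of all genes) as covariate, and each mouse left out. Leaving out the mice highest in hepatocyte markers (young mouse 3 and old mouse 4), in adipocyte markers (old-OSKM mice 1 and 4) or all 4 was chosen after seeing the data, and so was giving the lists and other named genes without them. The fit was tested on simulated data. Tables and figures were made with Python 3.11.15 and matplotlib 3.10.9.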

Additional observations from a re-analysis of the deposited data

Results flagged for a closer look

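Of 30 groups of values, 10 genes in 3 groups of mice, 2 held a mouse far from the others, where about 1 in 20 groups would by chance. Hadha in old-OSKM mice was 1.18 in mouse 4, while the other mice of the group lay between 1.74 and 1.77, so that the gap took up 0.937 of the range of the group. Acaa2 in old mice was 1.30 in mouse 5, while the others lay between 1.54 and 1.62, a gap of 0.73 of the range. The causes were not tested.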

How the results depend on the processing

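The medians of the members moved by less than 1 SD under every alternative, between -0.10 and -0.04 for old minus young, -0.08 and 0.06 for old-OSKM minus old, and -0.13 and -0.03 for old-OSKM minus young. Of 780 recomputed member differences 710 kept their sign and their side of the threshold, 20 gained and 2 lost a raw p under 0.05, 48 without such a p changed sign, and 0 with such a p reversed.

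Counts depend more on the choices. Members with a raw p under 0.05 for old minus young were 2 with all mice and 2 to 4 with single mice left out, the most without young mouse 1. They were 3 without the hepatocyte-marker mice (Cpt1a added) and 3 without all 4 marker mice (Acadvl added), where the share of all genes with such a p was 6.12% and 9.86%, against 5.52% with all mice. For old-OSKM minus old they went from 0 to 2 with array weights (Hadhb lower, Ech1 higher), to 1 (Ech1) with the run of sample numbers as covariate, to 1 (Ech1) with the global signature and to 0 to 3 with single mice left out. Without the mice highest in adipocyte markers it was 1 (Ech1), and without these and the hepatocyte-marker mice 2 (Acadvl and Ech1). The shares of all genes were 8.07% with all mice and, in that order, 16.1%, 6.88%, 4.1%, 4.44% to 16.5%, 4.14% and 4.61%. For old-OSKM minus young they went from 1 to 0 without the adipocyte-marker mice, to 0 without all 4 marker mice and to 1 to 2 with single mice left out, with shares of all genes of 5.07%, 5.03%, 5.38% and 4% to 12.4%.

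Genes called in the whole table were 207 for old minus young, 44 with the filter on low values, where fewer genes were tested, 16 with a pseudocount of 1, 116 with a pseudocount of 0.1 and 358 without all 4 marker mice. For old-OSKM minus old they were 176, and 35, 2 and 77 with the filter and the pseudocounts of 1 and 0.1. There they were 573 with array weights, 90 with the global signature, 80 without the adipocyte-marker mice and 94 to 338 with single mice left out. For old-OSKM minus young they were 146, and 19, 8 and 76 with the filter and the pseudocounts, 423 with array weights and 121 to 253 with single mice left out. The causes were not tested. Leaving out marker mice was chosen after seeing the data. The median of the complex I genes for old-OSKM minus old changed sign without old-OSKM mouse 4, from -0.09 to 0.01. With 4 or 5 mice a group the intervals of most members span 0, and the read depth of each mouse is not given, so its part in the spread was not tested.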
